A study of Arabidopsis thaliana with 8 samples.

Results

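Transcript levels of the agb1 mutant were compared directly with those of the cry1 cry2 double mutant of Arabidopsis thaliana, in whole seedlings of the Col-0 background held in blue light. The 2 libraries labelled agb1 and the 2 labelled cry1 cry2 were taken, 4 of the 8 libraries in the series, and the labels call the 2 libraries of a genotype biological replicates. The agb1 plants carry the allele agb1-2, while no source used here gives the cry1 and cry2 alleles. Seeds of all genotypes were plated on 1/2 MS medium with 1% sucrose, kept at 4 °C for 3 days, given 12 h of white light and then kept under blue light for 4.5 days. The remaining 4 libraries, from WT and hy5 seedlings grown the same way, entered only the scaling, the filter on low counts and the estimate of spread. WT levels are given beside some genes as values without a test.

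Cryptochromes CRY1 and CRY2 are flavoprotein receptors of blue light. Light-activated cryptochromes inhibit the COP1-SPA ubiquitin ligase, which otherwise removes transcription factors such as HY5, and they restrain the growth-promoting PIF factors. In blue light they thereby promote chloroplast development and anthocyanin formation and check the elongation of the hypocotyl, the seedling stem. AGB1 encodes the G-beta component of heterotrimeric G proteins. Together with the alpha subunit GPA1 and gamma subunits it acts at the cell membrane in growth, stomatal and defence signalling.

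The 4 libraries held 18850338 and 15651218 counted reads in agb1 and 16375665 and 15794472 in cry1 cry2. In the library with fewest reads, 3 reads correspond to 0.206 CPM (counts per 1e6 counted reads, scaled here by the TMM factors that correct for library composition). The 10 loci with most reads took 9.55% and 9.37% of the reads in agb1 and 4.41% and 4.19% in cry1 cry2. The scaling factors differed with them, at 0.940 and 0.931 in agb1 and 1.103 and 1.117 in cry1 cry2. Levels below are CPM per library in the order of the replicate numbers. A log2 fold change is positive where agb1 was higher and is given ± its standard error from the fit. A gene was called at an adjusted p under 0.05 from edgeR's quasi-likelihood test with Benjamini-Hochberg adjustment over all loci tested.

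The mutated genes were read first. CRY2 (AT1G04400) lies on chromosome 1 between bases 1185512 and 1188696 of TAIR10.1 and had 3831 and 3241 reads in agb1 and 3 and 4 reads in cry1 cry2. The pooled level was 1117 times higher in agb1, with an exact 95% Poisson interval of 542 to 2778 that covers only the counting error of the 7 cry1 cry2 reads. CRY1 (AT4G08920) was at 186 and 191 CPM in agb1 and at 82.4 and 78.0 CPM in cry1 cry2, a log2 fold change of 1.23 ± 0.06, so reads from CRY1 remained in the double mutant at a lower level. AGB1 (AT4G34460) was at 44.4 and 43.3 CPM in agb1 and at 74.7 and 68.0 CPM in cry1 cry2 (-0.70 ± 0.07). In each of the 3 genes the libraries of the 2 genotypes did not overlap, and the mutated genes were lower in the libraries labelled as their mutants.

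Reads were also missing from the genes beside CRY2. The cytosolic malate dehydrogenase gene c-NAD-MDH1 (AT1G04410, bases 1188995 to 1191458), which is next to CRY2, had 14611 and 12568 reads in agb1 and 5 and 8 in cry1 cry2. The following gene AT1G04420 (bases 1191519 to 1193884), annotated as an NAD(P)-linked oxidoreductase, had 916 and 751 reads in agb1 and none in either cry1 cry2 library, which makes it at least 614-fold higher in agb1 when 3 reads are allowed over the double mutant. The genes on either side of these 3 had reads in both mutants. AT1G04390 had 243 and 226 reads in agb1 and 262 and 258 in cry1 cry2, and AT1G04430 had 3053 and 2521 against 2924 and 2795. These values place a stretch of 3 adjacent genes without reads, or nearly so, in the libraries labelled cry1 cry2. The differences at c-NAD-MDH1 and AT1G04420 and the light-signalling differences between the mutants cannot be told apart by cause in this design.

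The 2 mutants differed at more genes than not. Of 20695 loci tested, 11985 were called (57.9%), 5953 higher in agb1 (28.8%) and 6032 lower (29.1%). Counts of list and family members below stand beside these shares, and several lie near them. With library sizes alone, without the TMM factors, the split was 3749 higher and 9890 lower, and the median log2 fold change of all loci moved from -0.01 to -0.25. At 2-fold or more 3530 loci were called (17.1%), 1988 higher (9.61%) and 1542 lower (7.45%). At 4-fold or more the counts were 613 higher and 341 lower. Many calls were small: the median absolute log2 fold change of called loci was 0.65. The libraries of the 2 mutants did not overlap at 16043 loci (77.5%), so separation of 2 libraries from 2 is common here and is given below only as a description.

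**Figure D1:**
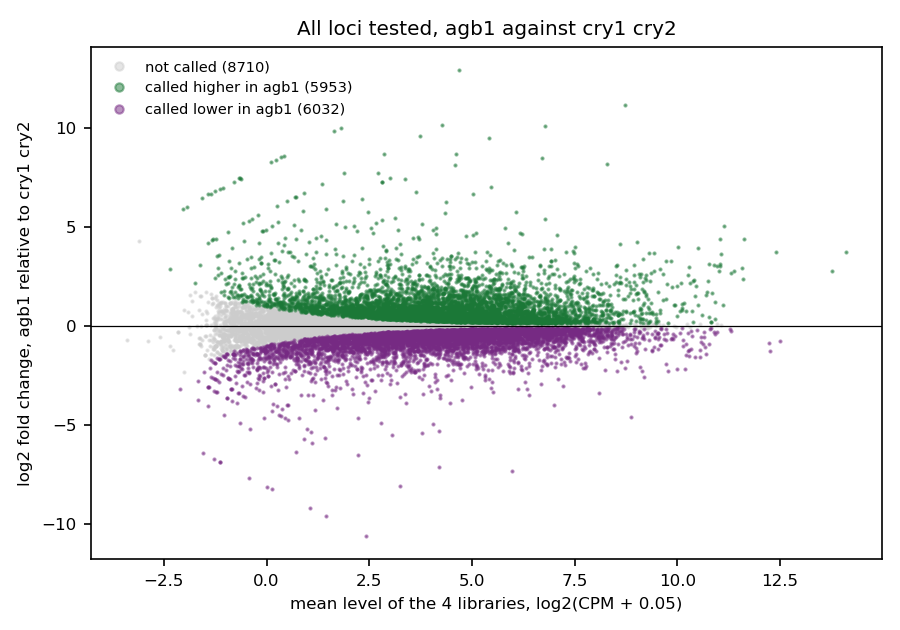
Log2 fold change of agb1 relative to cry1 cry2 (vertical axis) against the mean level of the 4 libraries as log2 of CPM plus a constant (horizontal axis), 1 point per tested locus, coloured by call. The 5953 loci called higher and the 6032 called lower lie over the whole range of levels, and the spread of the loci not called narrows as the level rises.

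WT levels show on which side of the pair a difference lay, as a description without a test. Among the 1988 loci called at least 2-fold higher in agb1, the WT mean lay between the 2 mutants at 1714, above both at 248 and below both at 26. It was nearer to agb1 at 1763 of them. Among the 1542 loci called at least 2-fold lower in agb1, the WT mean lay between the mutants at 1320, below both at 199 and above both at 23, and it was nearer to agb1 at 1219.

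The largest differences in the direction of agb1 included the 3 adjacent genes around CRY2 and several stress and metabolic genes that were almost silent in cry1 cry2. COR15B, a cold-regulated protein of the chloroplast stroma, was at 38.9 and 38.5 CPM in agb1 and had 1 read in the 2 cry1 cry2 libraries together (1381-fold, exact 95% Poisson interval 248 to 54540). COR15B overlaps AT2G42520 on the opposite strand, and no source used here says whether reads were assigned by strand. CIPK20, a protein kinase of calcium signalling, was at 88.4 and 81.1 CPM against 4 reads in all in cry1 cry2 (759-fold, 297 to 2786). THI2.2, a thionin, one of the small cysteine-rich peptides of plant defence, was at 51.3 and 46.1 CPM against 4 reads in all (437-fold, 171 to 1603). AT1G70820, annotated as a phosphoglucomutase, was at 207 and 209 CPM in agb1 and at 0.609 and 0.567 CPM in cry1 cry2 (log2 fold change 8.45 ± 0.12). FBA5, a fructose-bisphosphate aldolase, was at 632 and 606 CPM against 1.66 and 2.61 CPM (8.18 ± 0.10), and it overlaps the annotated aldolase gene AT4G26520 on the same strand. AT3G16670, AT3G05727, AT2G15020 and the receptor kinase gene RK2 completed the 12, each with at most 6 reads over the cry1 cry2 libraries. In all, 15 loci averaged 5 CPM or more across both mutants together and had at most 10 reads in the cry1 cry2 libraries. With the same average, 3 loci had at most 10 reads in the agb1 libraries. Loci under that average were not counted, even where 1 mutant had almost no reads. Among the 15, AT4G22495 and AT4G22505 overlap on opposite strands, so their reads may be shared.

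The largest differences in the direction of cry1 cry2 were seed, lipid and chlorophyll genes and a few regulators. WSD1, a wax ester synthase, had no read in either agb1 library and 10.8 and 10.5 CPM in cry1 cry2, at least 115-fold higher there when 3 reads are allowed over agb1. CRC, a cruciferin, one of the globulins stored in seeds, had 2 reads in agb1 and 14.0 and 23.8 CPM in cry1 cry2 (304-fold, 84.1 to 2510). PORA, the protochlorophyllide oxidoreductase that accumulates in dark-grown seedlings and whose transcript disappears in light, was at 0.621 and 0.962 CPM in agb1 and at 130.1 and 121 CPM in cry1 cry2 (-7.33 ± 0.14). GRF7, a growth-regulating transcription factor, was at 0.282 and 0.206 CPM against 37.4 and 35.4 CPM (-7.16 ± 0.22). HEC2, a basic helix-loop-helix factor of the HECATE group, was at 0.282 and 0.412 CPM against 16.6 and 15.6 CPM (-5.53 ± 0.25). AT5G44440, a berberine bridge enzyme-like oxidase, was at 37.1 and 36.1 CPM against 903 and 893 CPM (-4.62 ± 0.06). MRD1, AT2G47780 (a rubber elongation factor homologue), the cruciferin CRA1, the P450 CYP710A4, the F-box protein gene AT1G73120 and the oleosin OLEO3 were the others, with log2 fold changes from -5.43 to -3.92. GRF7, MRD1 and AT2G47780 overlap other annotated genes on the opposite strand. In WT the levels of PORA, GRF7 and HEC2 were all under 2 CPM, on the side of agb1.

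**Figure D2:**
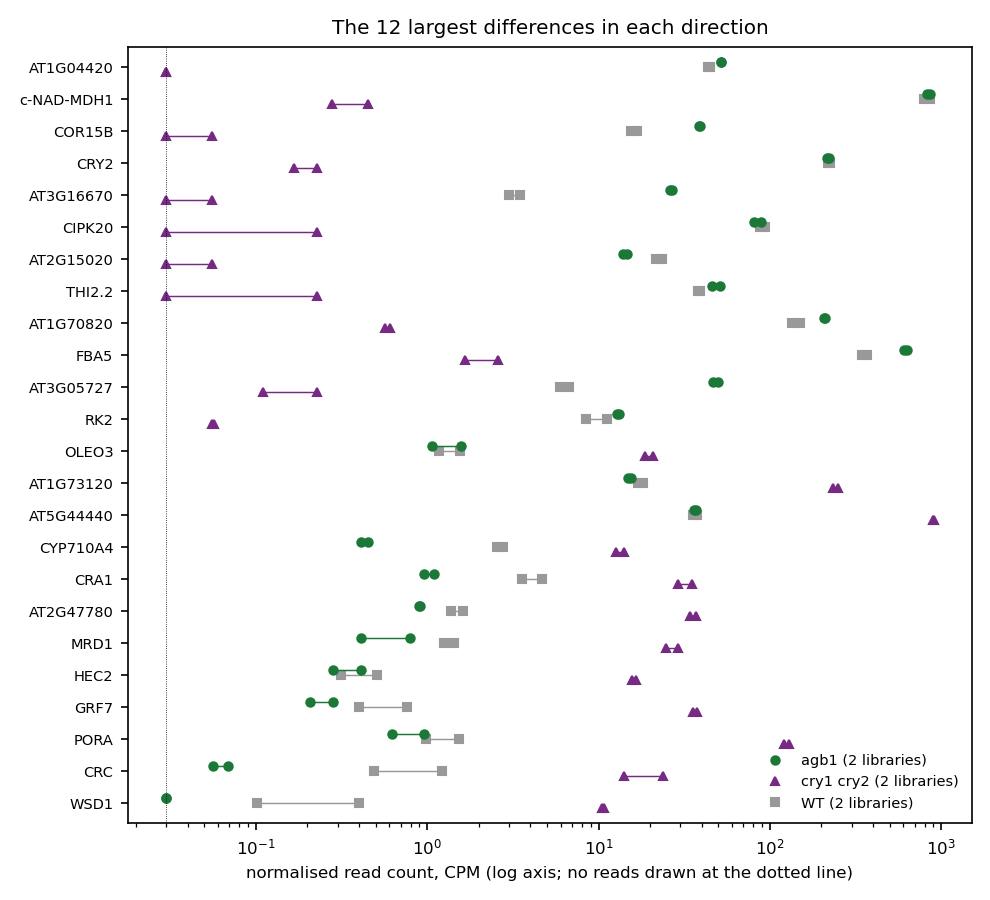
Normalised read counts (CPM, log axis) of the 12 genes with the largest called increase and the 12 with the largest called decrease in agb1 relative to cry1 cry2, with both libraries of each mutant and of WT as points joined by a line. Libraries without a read are drawn at the dotted line, and in all 24 genes the libraries of the 2 mutants lie apart.

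Genes of other tissues moved too, and in bulk seedlings fewer cells of a type and less RNA per cell cannot be told apart. The defining leaf markers RBCS1A and LHCB1.3 were abundant in all 4 libraries but higher in agb1. RBCS1A was at 5163 and 5248 CPM in agb1 against 994 and 1024 CPM in cry1 cry2 (2.37 ± 0.05). LHCB1.3 was at 32830 and 32590 CPM against 2597 and 2434 CPM (3.70 ± 0.05). Of 17 tested root-enriched genes, 12 were lower in agb1 and 1 higher, with a median log2 fold change of -1.27. Their summed level was 3427 and 3410 CPM in agb1 and 8104 and 7951 CPM in cry1 cry2. PYK10, a root beta-glucosidase, made up most of that sum, at 2874 and 2851 CPM against 6940 and 6836 CPM (-1.27 ± 0.05). Genes of the Casparian strip, the lignin barrier of the root endodermis, were lower too: CASP1 was at 54.5 and 58.9 CPM against 219.5 and 199 CPM (-1.89 ± 0.07), and CASP2, CASP4 and ESB1 were called lower. The root hair gene COBL9 was not called (-0.01 ± 0.13), and neither were RSL4, EXPA7 and EXPA18. Suberin genes went both ways, 8 of 13 higher and 4 lower (median 0.41). The fatty acyl reductase FAR1 was lower (-2.67 ± 0.06), the acyltransferase GPAT5 higher (0.92 ± 0.11), and CYP86A1 was not called (0.10 ± 0.08). Of 9 tested genes of guard cells and their lineage, 7 were higher and 1 lower (median 0.99), with FAMA, the factor of guard cell fate, at 20.09 and 18.95 CPM against 5.76 and 6.35 CPM. KAT1, a potassium channel of guard cells, was the lower one (-0.24 ± 0.10), at 14.8 CPM on average in agb1 and 17.4 in cry1 cry2, and it was not called when any 1 of the 4 libraries was left out. The part of these tissues in the results below was not tested.

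Seed genes were mostly lower in agb1, at low levels. Of 17 tested seed and embryo genes, 14 were lower in agb1 and 1 higher, with a median of -3.63. Their summed level was 28.3 and 24.7 CPM in agb1 and 107 and 140 CPM in cry1 cry2, so the genes were sparsely read in both. SESA3, SESA1 (2S albumins) and CRB (a cruciferin) had no read in agb1. A gene without reads in agb1 can pass the filter on low counts only through other genotypes. The direction and size of such values, and so of the median, are partly set by the filter. CRA1 was at 0.959 and 1.099 CPM against 29.0 and 35.0 CPM (-4.96 ± 0.18), and PER1, a seed peroxiredoxin, at 1.07 and 0.549 CPM against 11.1 and 9.75 CPM (-3.63 ± 0.24). ABI3, a regulator of seed maturation, was the 1 member higher in agb1 (0.80 ± 0.18). With a filter of at least 5 CPM in 2 libraries only 7 members were tested, 5 called lower and 1 higher.

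The genes of photosynthesis separated the 2 mutants most uniformly, and nearly all were higher in agb1. All 31 nuclear genes of photosystem subunits and electron transport and all 17 genes of the Calvin-Benson cycle, which fixes carbon dioxide, were called higher, and 20 of 21 antenna genes were. The median log2 fold changes were 2.56, 2.203 and 2.89, beside -0.01 over all loci tested. The summed antenna level was 111600 and 110500 CPM in agb1 and 12790 and 11860 CPM in cry1 cry2. These lists were chosen with earlier results of these data known, and their direction is no independent evidence.

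The antenna proteins bind chlorophyll and pass light energy to the photosystems. The 5 LHCB1 genes, of the most abundant antenna protein of photosystem II, had log2 fold changes from 2.78 (LHCB1.5) to 5.01 (LHCB1.2). LHCB1.2 was at 4426 and 4350 CPM in agb1 and at 142 and 129.8 CPM in cry1 cry2. LHCB1.3 was at 32830 and 32590 CPM against 2597 and 2434 CPM (3.70 ± 0.05). LHCB1.1, LHCB1.2 and LHCB1.3 are close copies, and no source used here says how reads that match several places were counted, so their separate values are uncertain. The minor antenna gene LHCB4.2 rose less (0.88 ± 0.05), and its paralogue LHCB4.3 was the 1 lower member (-0.44 ± 0.13, 6.92 against 9.35 CPM on average). LHCB4.3 was not called by DESeq2, without cry1 cry2 replicate 1 or with the most-read transcript model alone. The antenna genes of photosystem I were between 1.61 (LHCA6) and 3.60 (LHCA1).

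Among the photosystem and electron transport genes the values ran from 0.88 ± 0.06 (FD1, a ferredoxin) to 4.14 ± 0.06 (LFNR2). LFNR2, the leaf ferredoxin-NADP reductase that passes electrons to NADP, was at 744 and 723 CPM in agb1 and at 42.4 and 40.9 CPM in cry1 cry2. PSAO, a small subunit of photosystem I, was at 1741 and 1585 CPM against 172 and 169 CPM (3.28 ± 0.06). PSBR, a subunit of photosystem II, was at 3753 and 3680 CPM against 471 and 438 CPM (3.03 ± 0.05). In the Calvin-Benson cycle, RCA, the activase that frees the active site of Rubisco, was at 3147 and 3109 CPM against 366 and 358 CPM (3.11 ± 0.05). RBCS1A, a small subunit of Rubisco, was at 5163 and 5248 CPM against 994 and 1024 CPM (2.37 ± 0.05). The lowest value of the 17 was 1.06 ± 0.05 (CP12-1) and the highest 3.70 ± 0.10 (CP12-2), both of them regulators that hold 2 enzymes of the cycle in an inactive complex.

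The plastid genome itself differed less than the nuclear genes that serve it. Of its 88 genes, 69 were higher in agb1 and 5 lower, with a median of 0.58. The summed level was 22370 and 32240 CPM in agb1 and 15380 and 15030 CPM in cry1 cry2, so the 2 agb1 libraries were unequal. Without agb1 replicate 2 the counts were 50 higher and 9 lower (median 0.30), and without agb1 replicate 1 they were 77 higher and 1 lower (0.78). Of 56 tested mitochondrial genes, 18 were lower in agb1 and 2 higher (median -0.43). Without agb1 replicate 1 the counts were 8 lower and 2 higher (median -0.15), without agb1 replicate 2 they were 25 and 0 (-0.74), and without cry1 cry2 replicate 1 they were 10 and 1. DESeq2 called 9 lower and 0 higher, and with library sizes alone 28 were lower and 0 higher.

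Genes of chlorophyll synthesis were mostly higher in agb1. Of 20 genes, which cover the steps from glutamyl-tRNA to chlorophyll and a heme oxygenase, 17 were higher in agb1 and 2 lower. Their median was 1.14. CRD1, the cyclase that closes the fifth ring of the chlorophyll skeleton, was at 977 and 1009 CPM against 186 and 183 CPM (2.43 ± 0.05), and GUN5, the large subunit of the chelatase that inserts magnesium, at 754 and 781 CPM against 216 and 207 CPM (1.86 ± 0.06). HEMA1, the glutamyl-tRNA reductase at the entry to the pathway, had 1.103 ± 0.06. The 3 protochlorophyllide oxidoreductases, which catalyse the light-requiring step, went in different directions. PORC was higher in agb1 (1.81 ± 0.09), PORB lower (-0.54 ± 0.05, 264.8 against 384 CPM on average) and PORA lower by 7.33. GUN2, a heme oxygenase, was not called (0.10 ± 0.06).

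**Figure D3:**
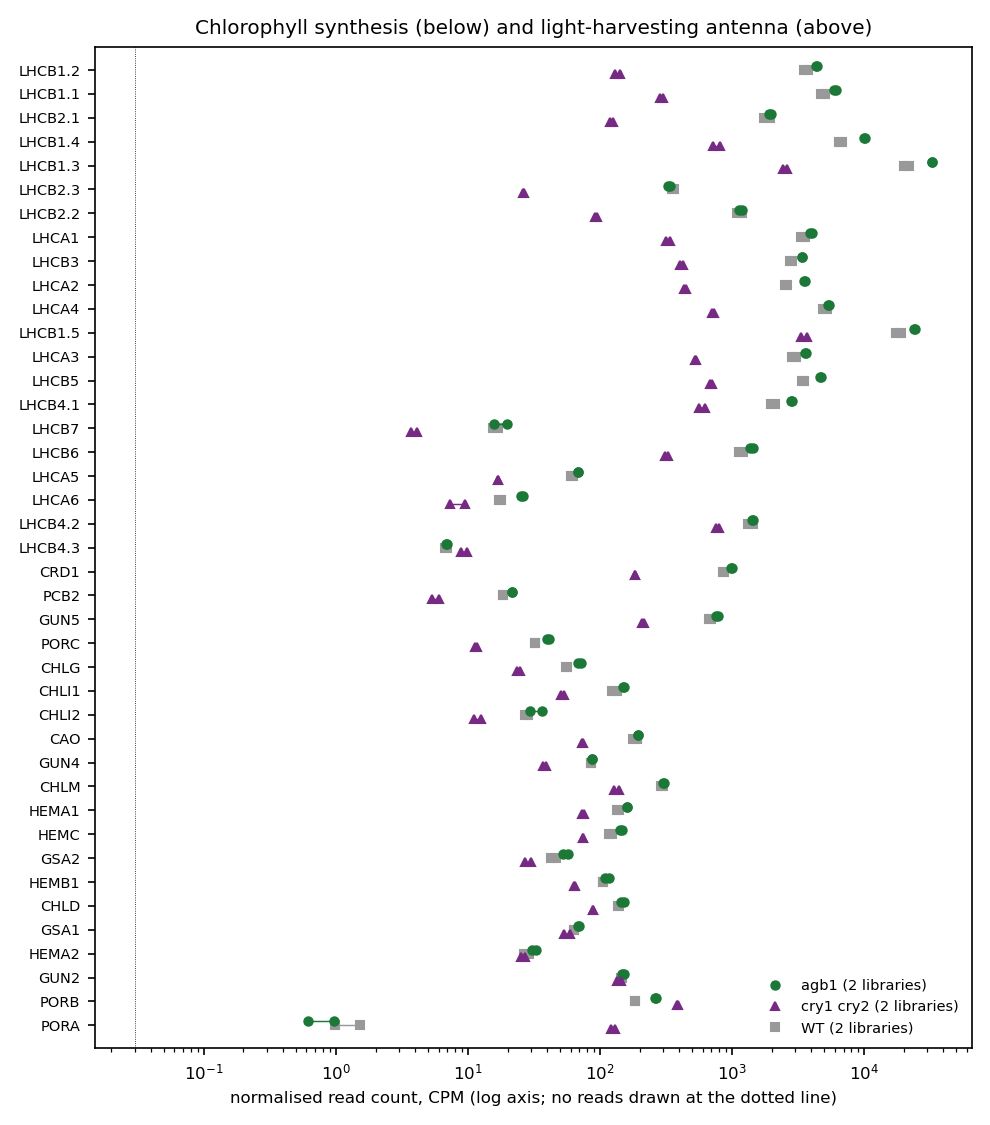
Normalised read counts (CPM, log axis) of the 21 antenna genes and the 20 chlorophyll synthesis genes, with both libraries of agb1, cry1 cry2 and WT as points. The agb1 libraries lie to the right of the cry1 cry2 libraries at most of the 41 genes and to the left at LHCB4.3, PORB and PORA.

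Genes of protection from light and of repair were mostly higher in agb1, 13 of 16 with 1 lower and a median of 1.34. NPQ1 and ZEP, which convert the xanthophylls of the antenna in opposite directions, were both higher, NPQ1 at 139.7 and 135 CPM against 17.3 and 16.5 CPM (3.02 ± 0.07) and ZEP at 294 and 299.5 CPM against 56.5 and 54.1 CPM (2.42 ± 0.06). SIG5, a sigma factor that directs the plastid RNA polymerase and is known to respond to blue light, was at 41.8 and 40.5 CPM against 4.82 and 5.67 CPM (2.97 ± 0.10). The photolyase genes PHR1 (1.34 ± 0.22) and UVR3 (1.47 ± 0.08), which encode light-driven DNA repair enzymes, and CRY3 (1.99 ± 0.13) were higher. ELIP1, an early light-induced protein, was lower (-1.37 ± 0.22, 2.45 against 6.27 CPM on average), and ELIP2 and RUP1 were not called.

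Flavonoid synthesis was higher in agb1 at its first steps, while much of the anthocyanin branch was too sparsely read to test. Only 12 of the 21 listed genes passed the filter on low counts. Of these, 7 were higher and 2 lower, with a median of 1.36. CHS, the first enzyme of the pathway, was at 28.7 and 26.8 CPM in agb1 and at 3.32 and 3.69 CPM in cry1 cry2 (2.99 ± 0.13). In WT, CHS was at 6.70 and 5.93 CPM, nearer to cry1 cry2 than to agb1. F3H, which makes dihydroflavonols, was at 13.7 and 13.4 CPM against 1.72 and 1.53 CPM (3.06 ± 0.18), and UGT78D2, a flavonoid glucosyltransferase, at 22.5 and 22.7 CPM against 8.47 and 7.94 CPM (1.46 ± 0.10). The flavonol synthase FLS1 (2.67 ± 0.27) and MYB12, the factor that activates flavonol genes (2.36 ± 0.30), were higher. MYB75, the factor that activates anthocyanin genes, was called lower, with no read in agb1 and 2.08 CPM on average in cry1 cry2. MYB75 could pass the filter only through other genotypes, so its direction and size are partly set by the filter. F3'H was lower too (-0.68 ± 0.27). The adjusted p of F3'H was 0.035 by edgeR's quasi-likelihood test with Benjamini-Hochberg adjustment. In the list, 1 member was called lower by DESeq2, without either agb1 replicate and without cry1 cry2 replicate 2. The lower count was 5 with library sizes alone. CHS and F3H overlap genes on the opposite strand, as do named genes of other lists.

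The 250 bases before the annotated start of the 3 flavonoid genes with the lowest p, of the genes with the largest increase and decrease, and of PORA, which was added after its values were seen, are printed to show which light- and stress-related motifs they hold. They were read from the TAIR10.1 genome, 5′ to 3′ on the strand of the gene, with motif matches in capitals. CHS lies on the plus strand with this window at chr5:4488226-4488475, F3H on the plus strand at chr3:19024942-19025191, UGT78D2 on the minus strand at chr5:5609590-5609839, AT1G04420 on the plus strand at chr1:1191269-1191518, WSD1 on the plus strand at chr5:14767176-14767425 and PORA on the minus strand at chr5:21992815-21993064.
CHS: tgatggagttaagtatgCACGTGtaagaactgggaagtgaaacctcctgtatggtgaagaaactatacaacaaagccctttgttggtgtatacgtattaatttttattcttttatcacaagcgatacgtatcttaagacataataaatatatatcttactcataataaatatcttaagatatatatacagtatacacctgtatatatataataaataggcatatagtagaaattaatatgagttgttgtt
F3H: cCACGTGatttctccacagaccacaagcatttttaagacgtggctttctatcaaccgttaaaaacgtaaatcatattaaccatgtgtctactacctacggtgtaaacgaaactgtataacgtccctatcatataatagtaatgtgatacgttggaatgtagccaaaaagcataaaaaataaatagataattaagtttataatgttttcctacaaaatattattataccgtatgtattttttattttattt
UGT78D2: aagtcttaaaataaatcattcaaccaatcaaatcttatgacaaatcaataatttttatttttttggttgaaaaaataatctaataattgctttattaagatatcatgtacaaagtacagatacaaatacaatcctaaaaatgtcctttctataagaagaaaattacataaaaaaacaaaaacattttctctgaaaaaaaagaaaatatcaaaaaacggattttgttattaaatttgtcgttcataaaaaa
AT1G04420: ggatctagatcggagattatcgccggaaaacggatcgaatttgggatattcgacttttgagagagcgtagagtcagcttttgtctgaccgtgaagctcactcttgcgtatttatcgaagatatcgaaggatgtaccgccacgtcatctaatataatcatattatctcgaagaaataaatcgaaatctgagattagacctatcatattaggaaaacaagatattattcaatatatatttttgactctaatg
WSD1: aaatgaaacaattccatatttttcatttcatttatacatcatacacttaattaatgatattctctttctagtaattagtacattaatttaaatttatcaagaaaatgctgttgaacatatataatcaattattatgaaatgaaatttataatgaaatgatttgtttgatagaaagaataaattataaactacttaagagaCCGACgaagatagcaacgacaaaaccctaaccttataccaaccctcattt
PORA: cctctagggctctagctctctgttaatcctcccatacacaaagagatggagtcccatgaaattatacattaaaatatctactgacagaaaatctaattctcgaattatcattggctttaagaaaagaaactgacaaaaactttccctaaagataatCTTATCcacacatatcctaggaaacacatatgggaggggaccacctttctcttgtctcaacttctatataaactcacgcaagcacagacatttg

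On both strands of these windows the G-box CACGTG, which HY5 and PIF factors are known to bind, the C-repeat core CCGAC of CBF factors, the I-box GATAAG of light-regulated promoters and the W-box TTGACC of WRKY factors were searched. A G-box was found at 233 bases before the start of CHS and at 249 before that of F3H, a C-repeat core at 50 before WSD1 and an I-box, on the other strand, at 94 before PORA. No match was found in the windows of UGT78D2 and AT1G04420, and the window of AT1G04420 begins inside c-NAD-MDH1. The G-box was in 7.39% of the 20549 such windows of tested loci, in 9.26% of 1976 of loci at least 2-fold higher in agb1 and in 8.65% of 1538 of loci at least 2-fold lower. The I-box was in 12.4%, 15.7% and 13.2% of these sets, the C-repeat core in 12.9%, 11.2% and 11.0%, and the W-box in 12.1%, 11.2% and 11.3%. Of the 21 listed flavonoid genes 7 held a G-box (33.3%), and of the 19 listed seed genes 10 did (52.6%). These counts include untested genes, and the share over all protein-coding nuclear genes was 6.49%. In the other lists the share ran from 0% (cell division among them) to 31.2% (light protection), with 27.3% in the clock and iron lists. The windows of COR15B, LHCB1.2 and HEC2, also read after their values were seen, held no match and are not printed. A match describes the letters only.

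Photoreceptor and light-signalling genes differed in both directions, 26 of 40 higher in agb1 and 11 lower, with a median of 0.46. B-box factors are zinc-finger proteins, of which only some act with HY5 in seedling greening, and the role of each listed member was not examined. Among them, BBX22 was at 76.8 and 75.0 CPM against 18.6 and 15.4 CPM (2.16 ± 0.08). BBX25 (1.85 ± 0.10), BBX29 (2.73 ± 0.19), BBX30 (2.90 ± 0.52) and BBX31 (1.55 ± 0.37) were higher too, whereas BBX20, BBX21 and BBX28 were lower. BBX23 was near absent in agb1, at 0.0626 CPM on average against 4.12 CPM in cry1 cry2 (-5.91 ± 0.54). BBX23 passed the filter on low counts only through other genotypes, so its direction and size are partly set by the filter. AT3G52740 (3.61 ± 0.37) and AT3G44450 (3.00 ± 0.34), listed as inhibitors of cryptochromes (BIC1 and BIC2), were both higher in agb1. Transcripts of other receptors changed less: PHYE (1.09 ± 0.09), PHOT2 (0.91 ± 0.06) and PHYB (0.37 ± 0.06) were higher, and PHYA, the phytochrome that accumulates in darkness, was lower (-0.67 ± 0.05). In the COP1-SPA complex, SPA1 was higher (1.203 ± 0.07), SPA3 by 0.79 ± 0.08, and COP1 itself was not called (0.17 ± 0.08). HY5 was not called (-0.07 ± 0.10), at 16.8 CPM on average in agb1 and 17.6 in cry1 cry2, and its homologue HYH was higher in agb1 (1.31 ± 0.16). Among the PIF genes, PIF4, PIF5 and PIF7 were slightly higher in agb1 (0.36 to 0.49) and PIF1 and PIF3 lower (-0.56 and -0.69).

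Clock genes were mostly higher in agb1, 16 of 21 with 1 lower and a median of 0.85. The morning factors CCA1 (1.71 ± 0.09) and LHY (2.21 ± 0.09), their coactivator LNK2, the pseudo-response regulators PRR5, PRR7 and PRR9, and the evening gene ELF4 (2.01 ± 0.09) were all among them. PRR5 was at 132 and 133 CPM in agb1 and at 19.2 and 19.5 CPM in cry1 cry2 (2.78 ± 0.07). FKF1, a blue-light receptor of the photoperiod pathway, was at 84.4 and 85.6 CPM against 14.8 and 15.3 CPM (2.50 ± 0.07), and CDF1, the flowering repressor that FKF1 marks for degradation, had 2.96 ± 0.15. ELF3 was lower (-0.53 ± 0.06), and LUX, CO, PRR3 and AT5G52660 were not called. No source used here gives the time of day of harvest, and a clock gene read at 1 time gives no phase.

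Auxin-response and wall-loosening genes were mostly lower in agb1. Of 30 tested auxin-response genes, 25 were lower in agb1 and 2 higher (median -0.77). Of 24 genes of expansins and xyloglucan endotransglucosylase/hydrolases (XTH), proteins that loosen and remodel the wall of growing cells, 19 were lower and 4 higher (median -0.81).

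Among the auxin genes, the Aux/IAA repressors, which auxin itself induces, ranged widely. IAA19 was at 26.9 and 25.3 CPM in agb1 and at 124 and 123 CPM in cry1 cry2 (-2.24 ± 0.06), and IAA17 at 78.8 and 80.1 CPM against 256 and 239.6 CPM (-1.64 ± 0.06). IAA5 (-5.68 ± 0.46) and IAA6 (-2.69 ± 0.16) were lower, IAA7 and IAA14 were not called, and IAA29 was higher, at 70.0 and 66.5 CPM against 28.2 and 25.1 CPM (1.36 ± 0.07). All 12 tested SAUR genes on the list, small auxin-induced proteins that promote cell expansion, were lower, by -1.29 to -0.55. The genes SAUR19 to SAUR24 are near-identical copies, and their reads may be shared. Over the annotated SAUR-like family, 39 of 66 tested genes were lower and 12 higher (median -0.88). The auxin synthesis gene YUC8 was lower (-0.56 ± 0.08) and YUC9 higher (0.89 ± 0.24).

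XTH17, XTH18 and XTH19, which are close copies, were all lower. XTH17 was at 128 and 123 CPM against 623 and 600.4 CPM (-2.29 ± 0.06), XTH19 at 34.9 and 35.4 CPM against 169 and 167 CPM (-2.26 ± 0.06), and XTH18 had -1.90 ± 0.06. The expansin EXPA4 was lower by a similar size (-2.37 ± 0.07). XTH9 was higher in agb1 (1.86 ± 0.07), as was the touch-induced XTH22, also called TCH4 (1.13 ± 0.06). EXPA1 was not called (0.13 ± 0.07).

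**Figure D4:**
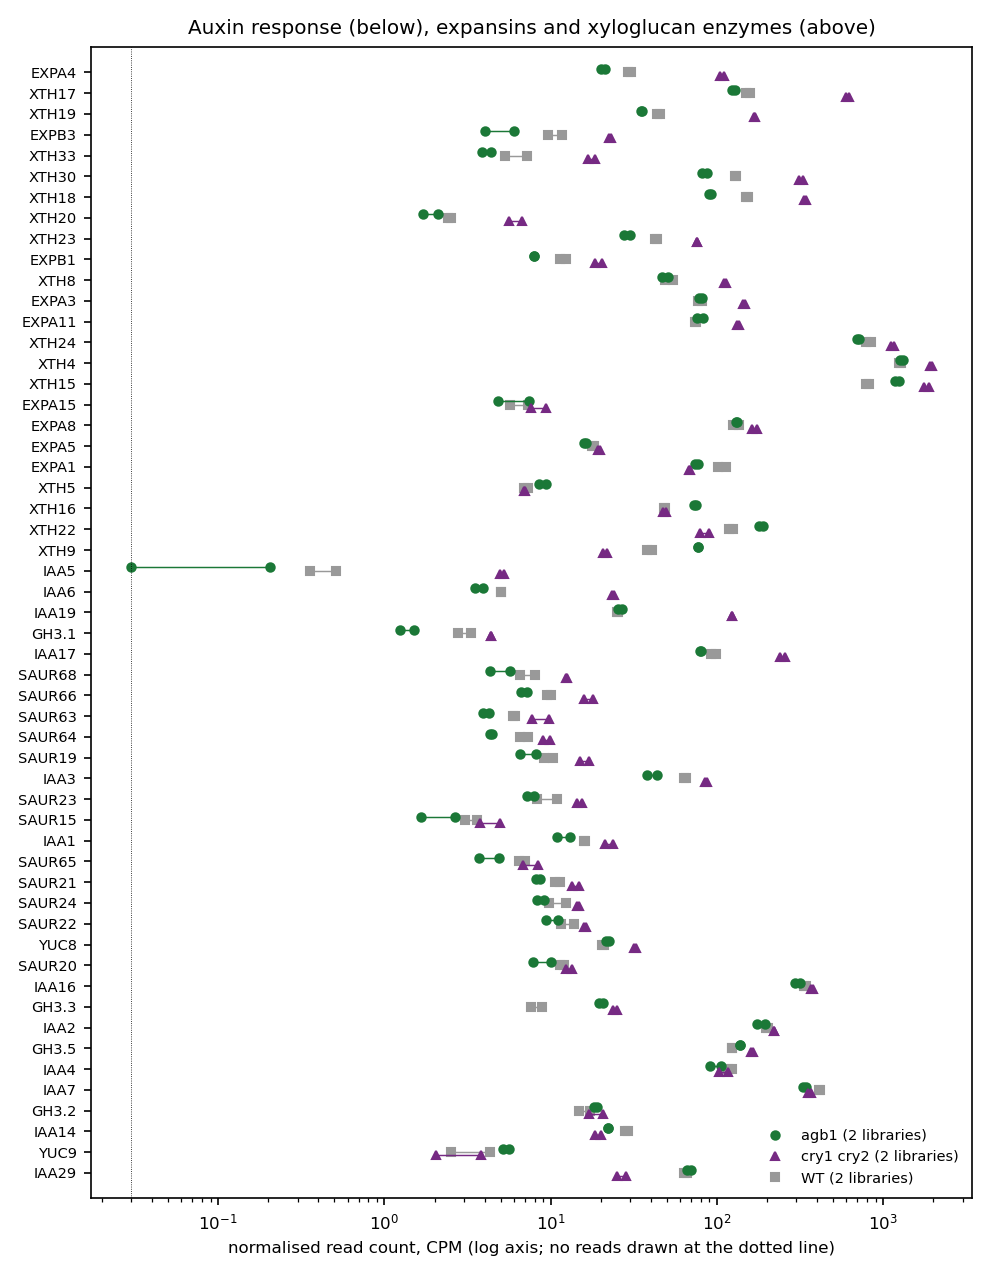
Normalised read counts (CPM, log axis) of the 30 tested auxin-response genes and the 24 expansin and XTH genes, with both libraries of agb1, cry1 cry2 and WT as points. The cry1 cry2 libraries lie to the right of the agb1 libraries at most genes, and the 6 called higher in agb1 are IAA29, YUC9, XTH5, XTH9, XTH16 and XTH22.

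Genes of other growth hormones were more often lower than higher in agb1. Of 23 tested gibberellin and brassinosteroid genes, 14 were lower in agb1 and 5 higher (median -0.50). The higher count was 2 without agb1 replicate 1 and 2 with library sizes alone. GA20OX1, which makes gibberellin precursors, was at 0.847 and 1.44 CPM against 11.2 and 11.1 CPM (-3.31 ± 0.21), and GA3OX1, which makes the active hormone, had -1.89 ± 0.17. GASA4, a gibberellin-regulated peptide, was at 165 and 163 CPM against 986 and 1021 CPM (-2.61 ± 0.05), whereas GASA1 was higher, at 444 and 420.5 CPM against 195 and 207 CPM (1.11 ± 0.05). The brassinosteroid synthesis genes DWF4 (-0.88 ± 0.07), ROT3 and BR6OX2 were lower and CPD was higher (0.63 ± 0.05).

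Of 18 tested cytokinin genes, 12 were lower in agb1 and 1 higher (median -0.76). CYP735A2, which makes trans-zeatin, the main transported cytokinin, was at 3.56 and 2.95 CPM against 29.3 and 25.7 CPM (-3.07 ± 0.13). WT was at 23.2 and 23.8 CPM there, nearer to cry1 cry2 than to agb1. The cytokinin-induced response regulators ARR4 (-0.84 ± 0.06), ARR5 (-1.26 ± 0.10), ARR6 and ARR8 were lower. ARR3 and ARR16 were not called.

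Among the homeodomain and HECATE factors associated with shade growth, HEC1 was at 6.10 and 5.63 CPM against 39.3 and 39.1 CPM (-2.74 ± 0.10), and HAT2 at 41.1 and 38.2 CPM against 86.1 and 83.2 CPM (-1.09 ± 0.06). HB-2, HAT3, HB4 and HEC3 were not called, so 3 of the 8 were lower. HAT1 was the 1 called higher (0.17 ± 0.07), a call that was lost without agb1 replicate 2 and without either cry1 cry2 replicate. Of 24 cell division genes, 16 were lower and 2 higher (median -0.59). The B-type cyclin CYCB1;4 was at 8.30 and 7.28 CPM against 18.5 and 20.2 CPM (-1.30 ± 0.11), and the cytokinesis syntaxin KN at 18.9 and 18.7 CPM against 30.2 and 29.3 CPM (-0.67 ± 0.08). The replication helicase genes did not share this: MCM3 (0.33 ± 0.13) and MCM5 (0.28 ± 0.11) were the 2 higher members, and MCM2, MCM6 and MCM7 were not called. Without any 1 library only 0 or 1 gene stayed called higher, and by DESeq2 and with library sizes alone none did.

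The phenylpropanoid pathway, from phenylalanine to lignin, was lower in agb1 at 13 of 18 genes and higher at 3, with a median of -0.36. Its paralogues split. PAL4, a phenylalanine ammonia-lyase at the entry, was at 65.9 and 66.2 CPM against 150.5 and 146 CPM (-1.17 ± 0.06), and PAL1 was lower too, whereas PAL2 was higher, at 120.3 and 127 CPM against 51.5 and 56.9 CPM (1.19 ± 0.06), and so was PAL3. CAD5, the last step to lignin monomers, was at 88.4 and 91.1 CPM against 206 and 199.8 CPM (-1.18 ± 0.06). Peroxidases and laccases, families that include enzymes of lignin polymerisation, were counted by product name. Which of the counted genes act on lignin was not examined. In the peroxidase family 37 of 53 tested genes were lower and 10 higher (median -0.65), with a summed level of 3666 and 3668 CPM against 7505 and 7164 CPM. Only 5 peroxidase genes were higher with library sizes alone. Of 13 laccases 8 were lower and 3 higher. The peroxidase gene AT2G37130 was at 420.5 and 409 CPM against 1962 and 1845 CPM (-2.198 ± 0.05). Root-enriched genes were lower in agb1 in the same libraries (12 of 17, above), and the root list holds the peroxidase PER64, which is also in the family. Pectin lyase-like proteins and pectinesterases were lower at 52 of 117 and higher at 25 (median -0.35).

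Glucosinolates, the sulfur-rich defence compounds of the cabbage family, separated by branch. Of 15 tested genes of the aliphatic branch, made from methionine, 11 were higher in agb1 and 1 lower (median 2.64). Of 15 genes of the indole branch, made from tryptophan, 2 were higher and 8 lower (median -0.44). MYB28, the main activator of the aliphatic genes, was at 18.4 and 19.9 CPM in agb1 and at 4.264 and 4.195 CPM in cry1 cry2 (2.17 ± 0.13). MAM1, which elongates the methionine side chain, was at 10.6 and 9.62 CPM against 0.942 and 1.02 CPM (3.36 ± 0.21). CYP83A1 (3.74 ± 0.35), BCAT4 (3.295 ± 0.50) and CYP79F2 (2.85 ± 0.34) were among the others, at low levels, and with a filter of at least 5 CPM in 2 libraries 5 members were called higher. In the indole branch, the methyltransferase gene IGMT1 was at 71.6 and 74.5 CPM against 152 and 154 CPM (-1.07 ± 0.06), although IGMT1 and IGMT2 are close copies. CYP79B3 (-0.54 ± 0.06) and CYP83B1 (-0.44 ± 0.06) were lower and CYP79B2 was higher (0.49 ± 0.06). No difference between the branches was tested.

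Disease resistance genes of the NBS-LRR class, intracellular immune receptors, were higher in agb1 at 55 of 112 tested loci and lower at 25 (median 0.30). With library sizes alone the counts were 48 and 34 and the median 0.06, and without agb1 replicate 1 the lower count was 16. At 2-fold or more 39 were higher and 6 lower. RPP4, a receptor of downy mildew resistance, was at 122 and 143 CPM in agb1 and at 2.82 and 2.04 CPM in cry1 cry2 (5.76 ± 0.12), and AT4G19530, another gene of the class, at 103 and 120.5 CPM against 6.26 and 5.90 CPM (4.195 ± 0.09). A leucine-rich repeat gene close to RPP4 on chromosome 4, AT4G16880 (bases 9495983 to 9497313), singled out after its values were seen, had 516 reads over the agb1 libraries and 3 over the cry1 cry2 libraries. Such genes lie in clusters of near copies and differ between strains, and the background of the cry1 cry2 line beyond its Col-0 label was not examined. Salicylate genes were mostly sparse, with 11 of 18 tested, 3 higher (27.3%) and 3 lower (27.3%). These shares were near the 28.8% higher and 29.1% lower over all loci tested. ICS1, which makes the salicylate precursor, was at 25.5 and 26.9 CPM against 14.95 and 12.47 CPM (0.93 ± 0.10), and FMO1, a flavin monooxygenase of systemic resistance, was lower (-4.51 ± 0.58), at 0.169 and 0 CPM in agb1 and at 2.27 CPM in each cry1 cry2 library. FMO1 could pass the filter on low counts only through other genotypes, so its direction and size are partly set by the filter. Without agb1 replicate 1 the higher count of the salicylate list was 1.

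Jasmonate genes were balanced, 7 of 17 higher and 7 lower (median -0.18). The synthesis gene AOC2 was at 65.2 and 60.1 CPM against 2.44 and 2.89 CPM (4.56 ± 0.12), and LOX2 and LOX3 were higher. The jasmonate-induced storage protein genes VSP1 (-1.30 ± 0.12) and VSP2 (-2.87 ± 0.20) were lower. The median of this list was 0.04 without agb1 replicate 2.

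Genes of rapid stress responses, induced within minutes by touch, cold or wounding, were higher in agb1 at 14 of 18 and lower at 1. Their median was 1.52. Most encode transcription factors, but CML12, CML24 and TCH4 do not. TCH4 is XTH22, counted among the XTH genes too, and MYB51 is also in the indole list. ZAT10, a zinc-finger repressor, was at 52.2 and 57.3 CPM in agb1 and at 6.48 and 6.07 CPM in cry1 cry2 (3.12 ± 0.13). ERF105 was at 43.5 and 42.7 CPM against 7.26 CPM in each library (2.57 ± 0.12), and ZAT12 at 36.57 and 37.98 CPM against 7.31 and 6.80 CPM (2.40 ± 0.13). RRTF1, a redox-responsive factor, had 348 reads over the 2 agb1 libraries and 7 over the 2 cry1 cry2 libraries (55.0-fold, 26.7 to 137). MYB51, which also activates indole glucosinolate genes, was the lower one (-0.80 ± 0.10). In WT, ZAT10, ERF105 and ZAT12 were between 11.3 and 16.6 CPM, between the 2 mutants.

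The cold and abscisic acid list held calls of both directions, 9 of 18 higher and 8 lower (median 0.55, and -0.08 with at least 5 CPM in 2 libraries). The CBF factors, which switch on cold acclimation, were higher in agb1 (CBF1 5.41 ± 0.24, CBF2 3.43 ± 0.14, CBF3 4.96 ± 0.34). Their known targets went different ways. KIN2 was at 166 and 138 CPM against 13.2 and 14.7 CPM (3.45 ± 0.09), RD29A at 458 and 461.5 CPM against 107 and 104 CPM (2.12 ± 0.06), COR15A had 5.87 ± 0.40 and KIN1 2.58 ± 0.10. ERD10 was lower (-0.23 ± 0.06), and COR47 was not called (-0.07 ± 0.05). Called lower were these genes of abscisic acid signalling and response: RD29B (-2.03 ± 0.08), ABF3 (-1.03 ± 0.06), ABI1 (-0.82 ± 0.05), ABI2 and RAB18. CYP707A3, which breaks the hormone down, was higher (1.18 ± 0.13), and its paralogue CYP707A1 lower (-0.93 ± 0.09).

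Nutrient genes differed by step rather than as lists. Nitrate reductase NIA2 was at 2196 and 2273 CPM in agb1 and at 567 and 553 CPM in cry1 cry2 (1.996 ± 0.06), and GLN2, the chloroplast glutamine synthetase, at 1477 and 1489 CPM against 377 and 385 CPM (1.96 ± 0.05). The nitrate transporter NRT1.1 (-0.66 ± 0.05) and the cytosolic glutamine synthetase GLN1.3 (-0.93 ± 0.06) were lower. SULTR2;1, a sulfate transporter of the vasculature, was at 88.1 and 87.3 CPM against 29.2 and 27.9 CPM (1.62 ± 0.07), whereas SULTR1;2, the root uptake transporter, was lower (-1.19 ± 0.06), as were the sulfur-deficiency markers SDI1 and LSU2. In all, 5 of the 15 nitrate and sulfate genes were higher and 8 lower (median -0.50).

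Of 21 tested iron genes 12 were higher and 6 lower (median 0.59). OPT3, a phloem iron transporter, was at 178 and 195 CPM against 93.2 and 95.1 CPM (0.99 ± 0.06), and the iron-deficiency factors BHLH38, BHLH100 and BHLH101 (1.63 ± 0.18) were higher, while BHLH39 (-0.68 ± 0.22) and their partner FRU, also called FIT (-1.09 ± 0.21), were lower. MYB10 was at 0.508 and 0.962 CPM against 9.03 and 11.6 CPM (-3.84 ± 0.26), and the ferritin gene FER1 was lower (-0.55 ± 0.06). Of 15 tested low-sugar and dark-inducible genes, 9 were higher and 5 lower (median 0.22, and -0.03 with library sizes alone). The beta-glucosidase DIN2 was lower, at 13.2 and 15.8 CPM against 68.6 and 69.7 CPM (-2.26 ± 0.09), while SEN1 was higher, at 1317 and 1311 CPM against 638 and 648 CPM (1.03 ± 0.05), and so was the sugar transporter STP1 (0.75 ± 0.05).

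No G protein subunit other than AGB1 was called between the mutants. Of 16 listed genes 4 were higher in agb1, 3 lower and 9 not called (median 0.03, and -0.21 with library sizes alone, where 2 were higher and 9 lower). The shares of 25% higher and 18.8% lower were below the 28.8% and 29.1% over all loci tested. The alpha subunit GPA1 was at 67.9 CPM on average in agb1 and 67.4 in cry1 cry2 (0.01 ± 0.06), and the gamma subunits AGG1, AGG2 and AGG3 and the extra-large alpha subunits XLG1, XLG2 and XLG3 were not called. RGS1, the regulator that keeps the alpha subunit inactive, was lower (-0.41 ± 0.11). THF1, a thylakoid protein that also interacts with GPA1, was at 251 CPM in each agb1 library and at 81.4 and 83.8 CPM in cry1 cry2 (1.603 ± 0.06). NDL1, a partner of AGB1, had 0.76 ± 0.06.

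**Figure D5:**
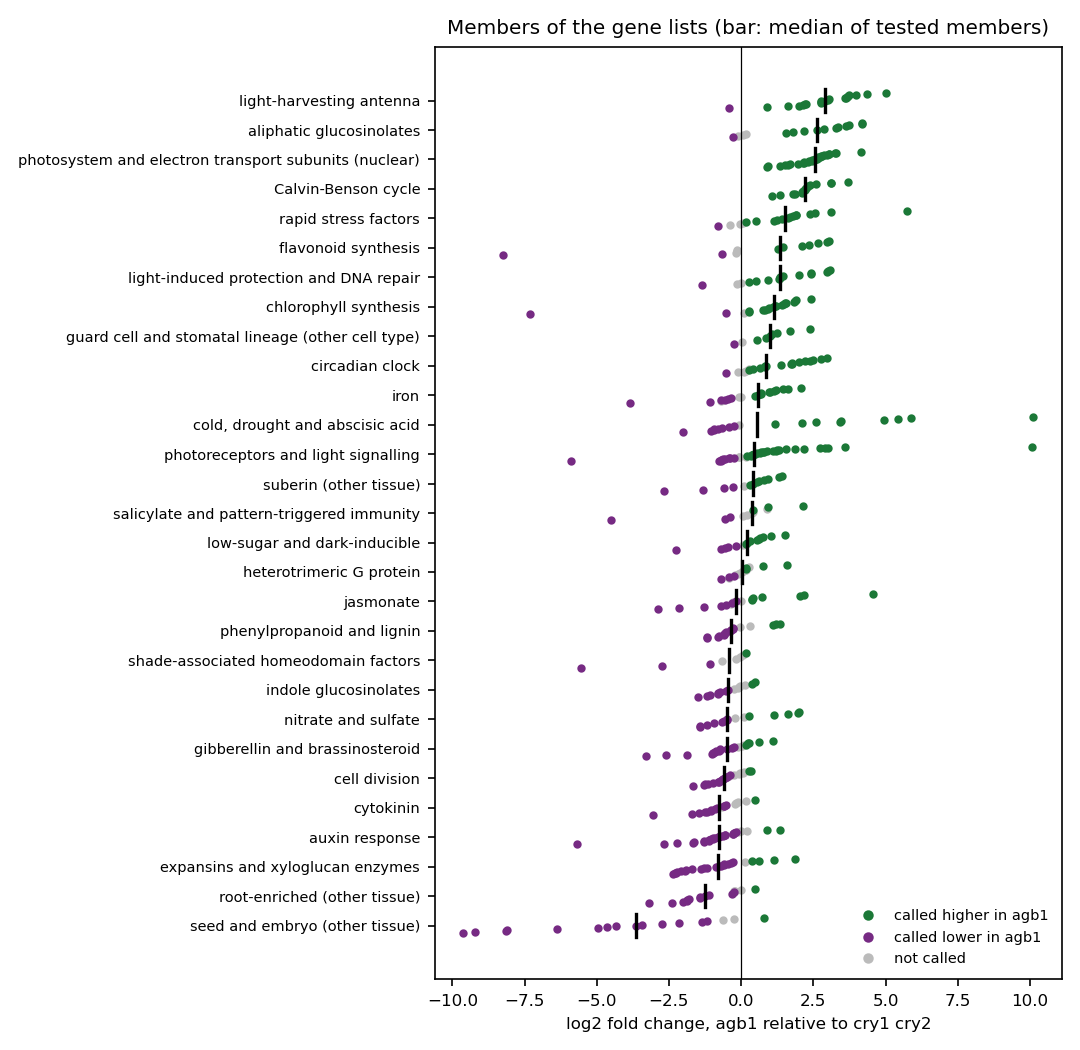
Log2 fold change of agb1 relative to cry1 cry2 for the tested members of the 29 gene lists, 1 point per gene coloured by call, with the list median as a bar and lists ordered by it. Medians run from 2.89 for the antenna to -3.63 for the sparsely read seed genes, and several lists in the middle hold calls of both directions.

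Gene families were also counted by product name, and some of their members are in the lists as well. Over all loci tested, 28.8% were called higher and 29.1% lower. The higher share of cytochrome P450 genes (25.2%) and the lower share of ABC transporters (27.3%) were near these. Ribosomal proteins were higher in agb1 at 185 of 319 tested genes and lower at 11 (median 0.23), but with library sizes alone 74 were higher and 66 lower (median -0.02), so their direction depended on the scaling. The plastid protein AT5G24490, annotated as a 30S ribosomal protein, was at 1356 and 1339 CPM against 187 and 185 CPM (2.86 ± 0.05). Histones were lower at 28 of 45 and higher at 3 (median -0.37), with most differences small. Cytochrome P450 genes were lower at 75 of 163 and higher at 41 (median -0.34), and glutathione S-transferases lower at 19 of 35 and higher at 8 (median -0.45). The higher count of the transferases was between 3 and 5 when any 1 library was left out and 2 with library sizes alone. In 3 transcription factor families more genes were lower than higher in agb1: MYB 42 of 86 against 20 higher, bHLH 40 of 91 against 19, and WRKY 22 of 54 against 9. With library sizes alone the lower and higher counts were 49 and 14 for MYB, 50 and 10 for bHLH and 31 and 6 for WRKY, and DESeq2 called 13 MYB genes higher. MYB27 was at 2.26 and 2.40 CPM against 26.1 and 25.3 CPM (-3.47 ± 0.16), WRKY60 at 2.14 and 2.61 CPM against 12.8 and 14.2 CPM (-2.52 ± 0.18), and PRE1, a growth-promoting helix-loop-helix protein, at 3.61 and 4.19 CPM against 14.6 and 16.3 CPM (-1.995 ± 0.14). B-box factors counted 12 of 21 higher and 6 lower. ABC transporters were higher at 17 of 33 and lower at 9 (median 0.23), and with library sizes alone 9 were higher and 12 lower.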

How the data were processed

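Whole-seedling RNA was extracted with a plant RNA kit, treated with DNase I and sequenced on an Illumina instrument, per the labels' protocols. The submitters' processing notes list Bowtie2 2.2.2 and the TAIR10 build. The authors deposited, per the file headers, a read count and an RPKM value (reads scaled to transcript length and library size) for each of 48321 transcript models. The tool that counted, its use of strand and its handling of reads shared between models or places are not stated. Overlaps between annotated genes are not given above for every named gene. Among others, RK2, LHCB1.3, PSBR, RCA, CRD1, PYK10, CASP1, ESB1, FAR1, LNK2 and FKF1 overlap genes on the opposite strand. NPQ1 and KN overlap each other on opposite strands. The RPKM values the authors deposited were not used for any result, since they are not counts.

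Counts were summed over the models of each of 27628 loci, of which 24741 had a read. If a read was counted in each model it matches, the sum repeats it at the 10690 loci with several models, and the model with most reads was used as an alternative. Names and coordinates came from the RefSeq annotation of TAIR10.1, which held 27420 of the loci, and promoter sequence from that genome. Low counts were filtered by filterByExpr over the 8 libraries, grouped by genotype (minimum count 10, total 15). A locus had to reach the minimum only in as many libraries as a genotype has. A gene nearly without reads in either mutant therefore passed through other genotypes, and the direction of its difference is partly set by the filter. Loci that passed were scaled by TMM and fitted together with edgeR 4.0.16 (limma 3.58.1, R 4.3.3), with 4 residual degrees of freedom. The quasi-likelihood test compared agb1 with cry1 cry2, with Benjamini-Hochberg adjustment. A gene without a call is not shown to be equal. Replicate libraries differed by more than sampling noise (chi-square per degree of freedom 3.53 in agb1 and 2.39 in cry1 cry2). The labels say biological replicates without naming separate cultures, so p-values measure the spread between these samples. Intervals and floors cover counting error only, at a 95% level. The procedure was also run on simulated counts in which few loci were changed, in random directions and with a fixed spread. Most loci were called here, so that simulation cannot show how the scaling behaves in these data. DESeq2 1.42.0 was 1 of the alternatives tried.

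The comparison and the gene lists were chosen with earlier results of these data known. The text names the targeted genes, the 12 largest called increases and the 12 largest called decreases among loci of at least 5 CPM whose libraries do not overlap, and in each list up to 3 called members of lowest p. Other named members, the family examples and AT4G16880 were chosen after their values were seen. Families were taken from the annotated product names.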

Additional observations from a re-analysis of the deposited data

How the results depend on the processing

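The count of 11985 called loci was 11971 with RLE scaling, 13639 with library sizes alone, 9770 by DESeq2, 12145 with no filter, 10445 with at least 5 CPM in 2 libraries, 11910 with the 4 libraries compared alone, 12012 with organelle loci left out and 10889 with the most-read transcript model. With library sizes alone 3749 were higher and 9890 lower. With a 2-fold minimum 3530 were called, 1988 higher and 1542 lower. Without 1 library the count was between 10239 and 10818, with 5161 to 5433 higher and 5078 to 5385 lower. With the replicate number as a replicate block 11899 were called, 5910 higher and 5989 lower. The deviations of same-numbered libraries had a correlation of -0.06 between agb1 and cry1 cry2. Over all pairs of genotypes it ran from -0.07 (WT and agb1) to 0.11 (WT and cry1 cry2). With 2 libraries per genotype these values cannot show whether the numbers pair the samples. The 105 genes named by the rule above kept their direction and their call in all 1364 recomputations. Most were picked from these data for large differences or low p, so this does not describe calls in general. Over all loci, 81.5% of the calls were kept by DESeq2 and 81.6% with library sizes alone. Of 377 recomputed list medians, 81 moved by more than their spread between pairs of libraries. The medians of 4 lists changed sign in 1 setting each, all given with the lists above. With library sizes alone the higher and lower counts also moved to 0 and 6 for the shade factors, 0 and 13 for cytokinin, 1 and 12 for indole glucosinolates, 14 and 2 for the clock, 12 and 2 for light protection, 6 and 6 for low-sugar genes and 13 and 3 for rapid stress factors. The auxin list had 1 member called higher without cry1 cry2 replicate 1, the jasmonate list 4 lower with the most-read transcript model, and the guard cell list 4 higher with at least 5 CPM in 2 libraries. The cause of these shifts was not tested. At these depths 3 reads correspond to 0.166 to 0.206 CPM, so differences between the mutants at that level are not detectable.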
